A study of Mus musculus with 9 samples.

Results

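CD4+ T cells that had switched on a Foxp3 reporter during 5 days with tumour organoids were set against reporter-positive cells made in the same time with TGFβ. The comparison takes 6 of the 9 libraries of the series, chosen by their labels: 3 of organoid-induced regulatory T cells (mTO-iTreg) and 3 of TGFβ-induced regulatory T cells (TGFβ-iTreg). It is described across the 10412 of 14912 genes that reached a normalized count of at least 5 in at least 3 of those 6 libraries. All cells came from mice of the strain B6.Cg-Foxp3tm2(EGFP)Tch/J, hemizygous for Foxp3<tm2Tch>, whose Foxp3 allele also encodes eGFP. Foxp3 is the master transcription factor of regulatory T (Treg) cells. The ages of the mice are not given. TGFβ-iTreg cells were eGFP-positive CD4+ cells taken on day 5. Their medium held TGFβ at 10 ng/ml and IL-2 at 300 U/ml, and they were stimulated through CD3 and CD28 by antibodies, 1 µg/ml of either. mTO-iTreg cells were eGFP-positive CD4+ cells taken on day 5 of co-culture with organoids grown from mouse colorectal tumours, with IL-2 at 20 U/ml. Their CD3 and CD28 antibodies had the same doses, and no added TGFβ is listed for them. Both groups thus carry the reporter allele, CD3 and CD28 stimulation and the sort for eGFP. By their labels they differ in the organoids, in added TGFβ and in the dose of IL-2, and these cannot be told apart. The 3 libraries of eGFP-negative CD4+ T cells from day 0 shared the estimate of the spread between libraries, and their levels are given as the level before culture.

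Induced Treg cells arise outside the thymus when a naive CD4+ T cell receives its antigen signal together with TGFβ and IL-2. TGFβ binds a pair of receptor kinases that phosphorylate the SMAD proteins, which enter the nucleus and, in T cells, act on genes such as Foxp3, Itgae (the integrin chain CD103) and Nt5e (the CD73 enzyme). IL-2 signals through JAK kinases to STAT5. The gut is a tissue where such cells are common, and colorectal tumours are known to contain many of them.

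The iTreg libraries held between 2078223 and 9944952 counts, and TGFβ-iTreg replicate 1 was the shallowest. Whether each library is from another animal or culture is not labelled, so the tests speak of the spread among these libraries, which may be technical. The form of the library codes in mTO-iTreg libraries differs from the form that TGFβ-iTreg and day 0 libraries share. A difference in preparation thus cannot be told apart from the mTO-iTreg group, whether it is set against TGFβ-iTreg or day 0 libraries. The reporter transcript eGFP stood at 588, 674 and 695 in TGFβ-iTreg and at 305, 462 and 262 in mTO-iTreg cells, against 54.6 ± 30.3 on day 0, and did not pass the test between the iTreg groups (log2 change -0.97 ± 0.35 SE, adjusted p = 0.052), though it did by limma-voom (adjusted p = 0.0019). Foxp3 was read sparsely, at 19.7, 14.9 and 14.8 and at 69.6, 37.2 and 81 (adjusted p = 0.096). Of 34 intestinal epithelial and organoid markers, 17 were in the table, 5 were tested and 0 were higher in mTO-iTreg cells. Their summed level was 197 to 211 in TGFβ-iTreg and 78.8 to 186 in mTO-iTreg libraries, and Krt18 was at 0, 0 and 0 and at 0, 0 and 4.65. The summed level of 10 B and plasma cell markers was 33.6 to 88.2 and 85.7 to 181, and that of 10 myeloid and dendritic markers 694 to 871 and 496 to 626. All 13 T cell markers in the table were tested, with summed levels of 29472 to 30752 and 30905 to 36268. Xist, the transcript of the inactive X chromosome, was at 0, 2.71 and 70.6 in TGFβ-iTreg and at 314, 398 and 401 in mTO-iTreg libraries (log2 change 5.85 ± 1.66 SE, adjusted p = 0.018), a call lost without TGFβ-iTreg replicate 1 (adjusted p = 0.0833) or 2 (0.0569), or if mTO-iTreg replicate 2 (0.0532) or 3 (0.0582) was left out. On day 0 Xist was at 3.51, 0 and 212, so it varied between libraries before culture as well. The sex of the mice was not taken into account in the comparison. The difference in Xist between the iTreg groups cannot be told apart from the culture conditions, and its part in other differences was not tested.

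By limma's moderated test with Benjamini-Hochberg adjustment over all tested genes at 0.05, 2934 genes differed between the iTreg groups (28.2%). Of these, 1642 were higher in mTO-iTreg cells (15.8% of the genes tested) and 1292 lower (12.4%). Genes that differed at least 2-fold numbered 1163 upward (11.2%) and 728 downward (6.99%). In 4784 genes (45.9%) the 3 and 3 libraries did not overlap. The median log2 change over all tested genes was 0.12. The majority of upward calls, 56.0%, turned with TMM factors (1390 up, 1526 down, 47.7% upward) and with quantile normalization (1381 up, 1566 down, 46.9% upward), which moved the median of all genes to -0.04. No call changed its direction in the analyses run. Each list count that follows is to be read against 15.8% higher and 12.4% lower. Levels are normalized counts, given for the 3 libraries of a group or as mean ± SD over them, with TGFβ-iTreg first wherever no group is named; positions are on mm10. Fold values are ratios of group means, and log2 changes are fitted on log2(normalized count + 1). The added 1 makes the log2 change of rare transcripts smaller. Where the libraries of a group are uneven, the log2 change can still exceed that of the fold value, as for Src.

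**Figure D1:**
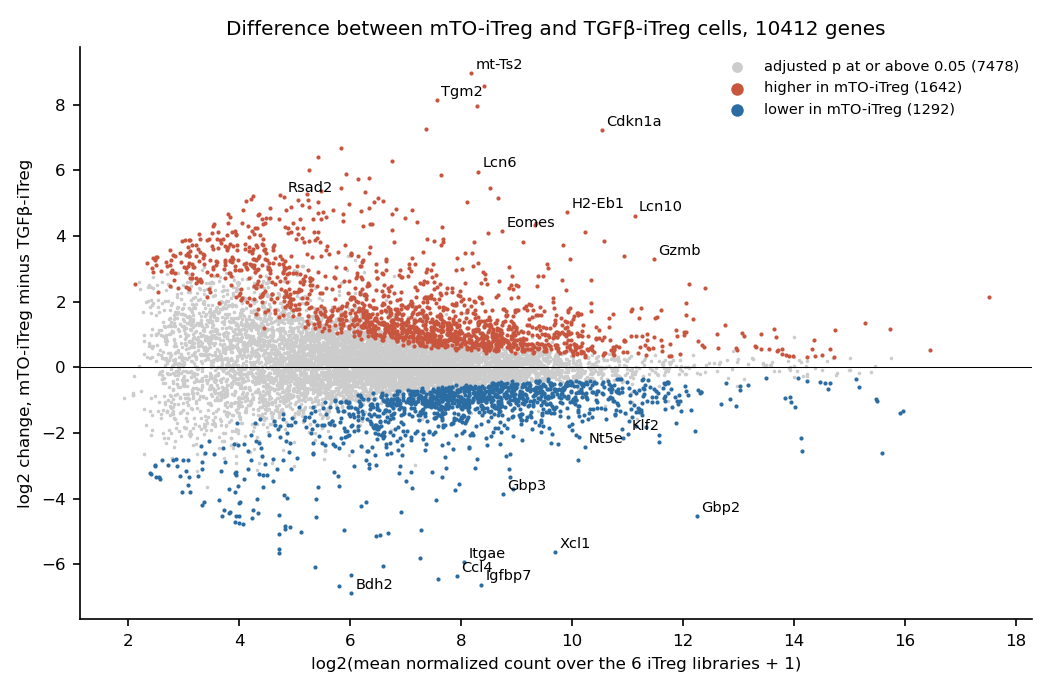
Each point is 1 tested gene. The horizontal axis gives the log2 of its mean normalized count over the 6 iTreg libraries plus 1, and the vertical axis the fitted log2 change, with 1642 genes higher in mTO-iTreg cells in red and 1292 lower in blue. Gbp2 stands out among the lower genes for its level, and Cdkn1a among the higher ones.

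TGFβ pathway genes differed in both directions. Of 36 tested members 7 were higher and 10 lower in mTO-iTreg cells (median log2 change -0.35), and 4 were higher when replicate 2 of either iTreg group was left out. Among 7 receptors, 0 were higher and 3 lower. Tgfbr1, the type I receptor kinase, stood at 239, 336 and 183 in TGFβ-iTreg and 91.4, 105 and 49.8 in mTO-iTreg libraries, a 3.08-fold lower mean (log2 change -1.63 ± 0.33 SE, adjusted p = 0.0028). Tgfbr2, the chain that binds the ligand first, was at 637, 615 and 557 against 379, 367 and 256 (log2 change -0.87 ± 0.17 SE, adjusted p = 0.0025). Neither pair of groups overlapped, and the mTO-iTreg level of Tgfbr1 was close to the 101 ± 26.3 of day 0. Smad3, which carries the signal into the nucleus, went the other way: it was at 54.1, 73.9 and 69.7 against 400.4, 263 and 417, 5.47-fold higher in mTO-iTreg cells (log2 change 2.42 ± 0.24 SE, adjusted p = 1.5e-05). Smad1, which serves the BMP branch, was 2.92-fold higher, and the BMP ligand gene Bmp7 stood at 2.86 ± 2.4 and 39 ± 4.34 (adjusted p = 0.0018).

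Of 18 feedback and target genes of TGFβ 7 were lower and 4 higher, with 2 higher without TGFβ-iTreg replicate 1 or mTO-iTreg replicate 1 or 3 and 1 without replicate 2 of either iTreg group. Among the lower ones was Itgae, which pairs with the β7 integrin to bind epithelial E-cadherin. Its level was 622, 569.7 and 364 in TGFβ-iTreg and 17.7, 11.8 and 1.33 in mTO-iTreg libraries, 50.4-fold lower (log2 change -5.94 ± 0.64 SE, adjusted p = 2.2e-05; chromosome 11, 73090583 to 73147446). All 3 mTO-iTreg values lay below the day 0 mean of 35.9 ± 13.8. Nt5e, which makes adenosine outside the cell, was at 1859, 2432 and 1774 against 402, 447 and 289, 5.33-fold lower (log2 change -2.42 ± 0.26 SE, adjusted p = 2.3e-05) and near its day 0 level of 311 ± 130.1. Nrp1, a coreceptor for semaphorins that also marks many Treg cells and is not in that list, fell from 769 ± 204 to 120.4 ± 43.2 (log2 change -2.69 ± 0.36 SE, adjusted p = 0.00013). The feedback inhibitor Pmepa1 was 2.04-fold lower, and the ubiquitin ligase Smurf2, which marks receptors and SMADs for destruction, 2.14-fold lower. Timp2, an inhibitor of matrix proteases, was 3.0-fold lower, and Id3, which blocks E proteins, 2.76-fold. Among the higher ones, Klf10, an early TGFβ-inducible transcription factor, was at 83.6, 48.2 and 56.8 against 551, 545 and 596, 8.97-fold higher (log2 change 3.18 ± 0.26 SE, adjusted p = 3.5e-06), from 62.2 ± 7.57 on day 0. Dapk2, a death-associated kinase, was at 9.84, 0.678 and 3.95 against 41.6, 46.5 and 31.2, 8.25-fold higher (adjusted p = 0.015), a call lost without TGFβ-iTreg replicate 2 (adjusted p = 0.0637) or mTO-iTreg replicate 1 (0.0507) or 2 (0.0521). Tgfb1 itself, at 6.9 ± 1.31 with TGFβ and 15 ± 8.0 with organoids (adjusted p = 0.3), and the inhibitory Smad7, at 109.7 ± 9.9 with TGFβ and 76.3 ± 20.9 with organoids (adjusted p = 0.29), did not pass the test.

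**Figure D2:**
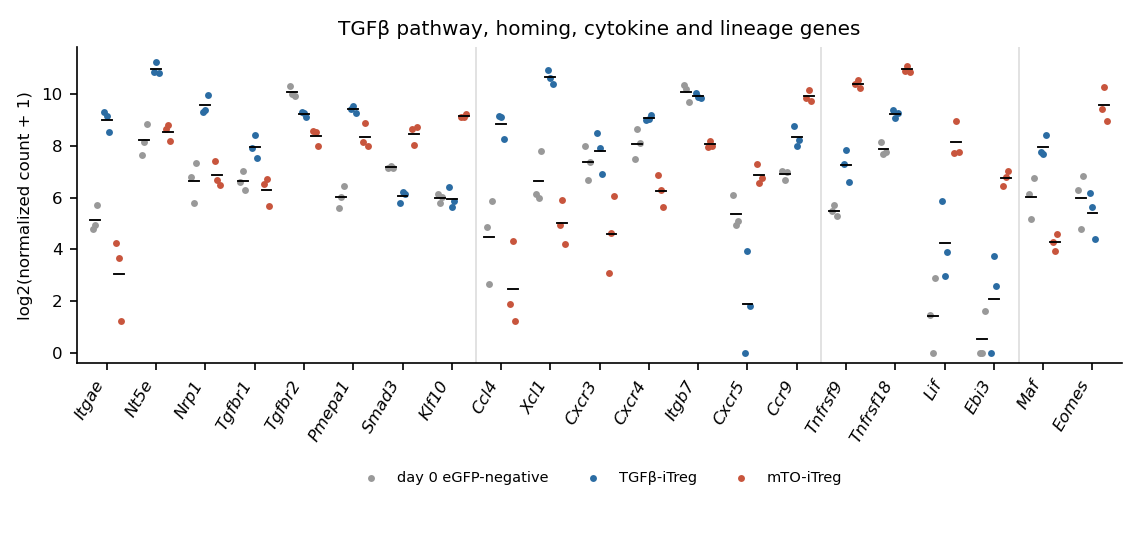
Points are single libraries (3 a group), on a log2(normalized count + 1) axis, and bars are means of those log2 values. Vertical lines separate TGFβ pathway genes with Nrp1, homing genes, TNF receptors with cytokines, and lineage factors. Itgae, Ccl4, Xcl1 and Maf lie far lower in the mTO-iTreg (red) than in the TGFβ-iTreg (blue) libraries, and Klf10, Cxcr5, Tnfrsf9 and Eomes far higher.

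Called interferon-inducible genes differed in direction by family. Interferons act through paired receptors and JAK kinases. Type I interferon forms a complex of STAT proteins and IRF9 that binds the element ISRE, and interferon gamma a STAT dimer that binds the element GAS. The antiviral family (Ifit, Oas, Mx, Rsad2) is best known as a target of the former, and the large GTPases of the guanylate-binding (Gbp) and immunity-related (Irg) families, which attack vacuoles that hold parasites and bacteria, as targets of the latter. The last 150 bases before the start in RefSeq's annotation are shown for 3 genes that were lower in mTO-iTreg cells (Gbp2, Gbp3, Irgm1) and 2 that were higher (Rsad2, Ifit1), since all 5 hold a match to the same ISRE letters. Capitals mark matches to GAAANNGAAA or, on the other strand, TTTCNNTTTC; overlapping matches run together. The sequences are RefSeq's on GRCm38.p6, at chr3:142620513-142620662, plus strand; chr3:142559894-142560043, plus strand; chr11:48871421-48871570, minus strand; chr12:26456453-26456602, minus strand; and chr19:34640739-34640888, plus strand. GENCODE, whose positions are given for genes elsewhere in the text, places the start of Gbp2 61 bases, Gbp3 18, Irgm1 263 and Ifit1 18 bases further upstream than RefSeq, and that of Rsad2 at the same base. By GENCODE, the whole Irgm1 window and the match of Gbp2 thus lie inside the gene.
Gbp2: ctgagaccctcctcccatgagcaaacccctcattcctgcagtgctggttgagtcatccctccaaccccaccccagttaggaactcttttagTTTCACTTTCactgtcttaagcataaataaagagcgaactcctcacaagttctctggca
Gbp3: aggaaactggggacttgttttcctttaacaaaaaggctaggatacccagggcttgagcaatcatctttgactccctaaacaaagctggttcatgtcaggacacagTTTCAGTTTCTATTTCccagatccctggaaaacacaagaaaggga
Irgm1: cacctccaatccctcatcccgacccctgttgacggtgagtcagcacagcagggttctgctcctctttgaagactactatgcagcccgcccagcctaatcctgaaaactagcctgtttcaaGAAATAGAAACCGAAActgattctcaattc
Rsad2: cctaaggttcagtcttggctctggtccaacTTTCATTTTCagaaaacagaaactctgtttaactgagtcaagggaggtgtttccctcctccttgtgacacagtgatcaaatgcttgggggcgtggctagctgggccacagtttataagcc
Ifit1: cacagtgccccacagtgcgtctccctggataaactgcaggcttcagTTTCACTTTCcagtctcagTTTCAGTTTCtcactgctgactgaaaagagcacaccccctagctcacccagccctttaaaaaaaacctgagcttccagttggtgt

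In windows from 250 bases before to 50 after RefSeq's start, the ISRE letters were found for 1079 of 27025 genes in the table of promoters (3.99%), and the GAS letters TTCNNNGAA, which read the same on both strands, for 2582 (9.55%). The ISRE letters were found for 14 of the 28 tested antiviral genes that had a window, for all 4 such Gbp genes and for 3 of 4 Irg genes. Among the antiviral genes that were higher in mTO-iTreg cells it was 6 of 12, and among the Gbp and Irg genes that were lower 2 of 2 and 3 of 3. The GAS letters were found for 1 of those 12, for 0 of 2 and for 2 of 3. Genes of both directions thus carried ISRE letters in these windows. A match is a run of letters and not evidence of binding.

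The Gbp and Irg genes that passed the test were lower in mTO-iTreg cells, with 1 exception. Of 10 Gbp genes 3 were lower and 1 higher, and of 6 Irg genes 4 were lower and 0 higher. Gbp2 was abundant in TGFβ-iTreg cells, at 11432, 7084 and 9621, and stood at 358, 391 and 452 in mTO-iTreg libraries. It was 23.4-fold lower (log2 change -4.53 ± 0.2 SE, adjusted p = 1.6e-08; chromosome 3, 142620602 to 142638008) and below all 3 day 0 libraries, which held 965, 868 and 1420.0. Gbp3, at 967, 584 and 863 against 75, 29.2 and 67.8, was 14-fold lower (log2 change -3.87 ± 0.44 SE, adjusted p = 3.8e-05). Gbp1, at 169.7, 83.4 and 73.1 in TGFβ-iTreg libraries, had 0 counts in all 3 mTO-iTreg libraries. It was at least 166-fold lower, taking 3 counts over the group as the floor (adjusted p = 0.00031). Gbp genes are close copies of one another, so the division of reads among them is uncertain. Among Irg genes, Iigp1 was at 492, 464 and 1081 against 138, 169 and 278 (log2 change -1.75 ± 0.36 SE, adjusted p = 0.0031) and Irgm1 at 391, 315 and 432 against 83.2, 191 and 133 (log2 change -1.54 ± 0.33 SE, adjusted p = 0.0035). The falls of Irgm2 (adjusted p = 0.04) and Igtp (adjusted p = 0.048) were small, 1.5-fold and 1.39-fold, and were lost without TGFβ-iTreg replicate 1 (adjusted p = 0.0958 and 0.182) or 3 (0.176 and 0.157), or mTO-iTreg replicate 1 (0.128 and 0.128) or 3 (0.088 and 0.0504). That of Igtp was also lost without mTO-iTreg replicate 2 (0.122) and without day 0 replicate 1 (0.0545) or 2 (0.053), so that 2 Irg genes were lower without any of the first 4 of these libraries. The member that was higher was Gbp7, by 1.64-fold (adjusted p = 0.024), a call lost without TGFβ-iTreg replicate 2 (adjusted p = 0.0964) or 3 (0.0596) or mTO-iTreg replicate 2 (0.0931).

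Most antiviral genes that passed the test were higher. Of 39 tested, 17 were higher and 3 lower (median log2 change 0.72), and 11 were higher without mTO-iTreg replicate 3, and 5 lower without TGFβ-iTreg replicate 2. Rsad2, which makes a nucleotide that stops viral polymerases, was at 0, 2.03 and 0 in TGFβ-iTreg and 52.5, 40.9 and 65.8 in mTO-iTreg libraries (log2 change 5.2 ± 0.66 SE, adjusted p = 9.2e-05), from 3 and 242 counts in all. Oas2, a sensor of double-stranded RNA, was at 0, 0 and 1.48 against 8.18, 20.5 and 21.3 (adjusted p = 0.0026). In neither gene did the groups overlap, and the levels were low. Usp18, which takes the ubiquitin-like ISG15 off proteins and damps the type I receptor, was at 14.8, 31.2 and 34.6 against 149, 282 and 195, 7.78-fold higher (log2 change 2.95 ± 0.49 SE, adjusted p = 0.00071). The RNA sensor Dhx58 was 6.69-fold higher, Oasl2 7.91-fold, Ifit2 4.38-fold, Ifit1 3.12-fold and the transcription factor Irf7 3.21-fold. Levels on day 0 stood on either side of the mTO-iTreg levels. The level of Ifit1 was 419.8 ± 99.3 on day 0, 75.7 ± 30.02 with TGFβ and 236 ± 64.2 with organoids, and Dhx58 at 44.2 ± 15.4, 17.6 ± 8.71 and 118 ± 33.2. Of the lower members, Ifi203, a nuclear HIN-200 family member, was 1.74-fold lower.

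A chain of each interferon receptor was higher. Ifnar2, a chain of the type I receptor, was at 499, 486 and 418 against 1410.5, 1268 and 1290.0 (log2 change 1.5 ± 0.18 SE, adjusted p = 6.6e-05). Ifngr2, the signalling chain of the interferon gamma receptor, was at 135, 155 and 251 against 623, 1000.0 and 686 (log2 change 2.11 ± 0.25 SE, adjusted p = 4.4e-05). Both were higher in mTO-iTreg cells with no overlap between groups. Stat2, a part of the type I complex, was 2.95-fold higher (adjusted p = 0.0013). Transcripts of interferon gamma were few, Ifng being at 49.2, 0 and 4.45 against 7.5, 2.48 and 0. Of 12 genes of interferon regulatory factors and their binding partners, 4 were higher and 2 lower. Irf4, which follows the strength of the antigen signal, was at 224, 333 and 510.3 against 92.1, 125 and 97, 3.4-fold lower (log2 change -1.69 ± 0.4 SE, adjusted p = 0.007).

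**Figure D3:**
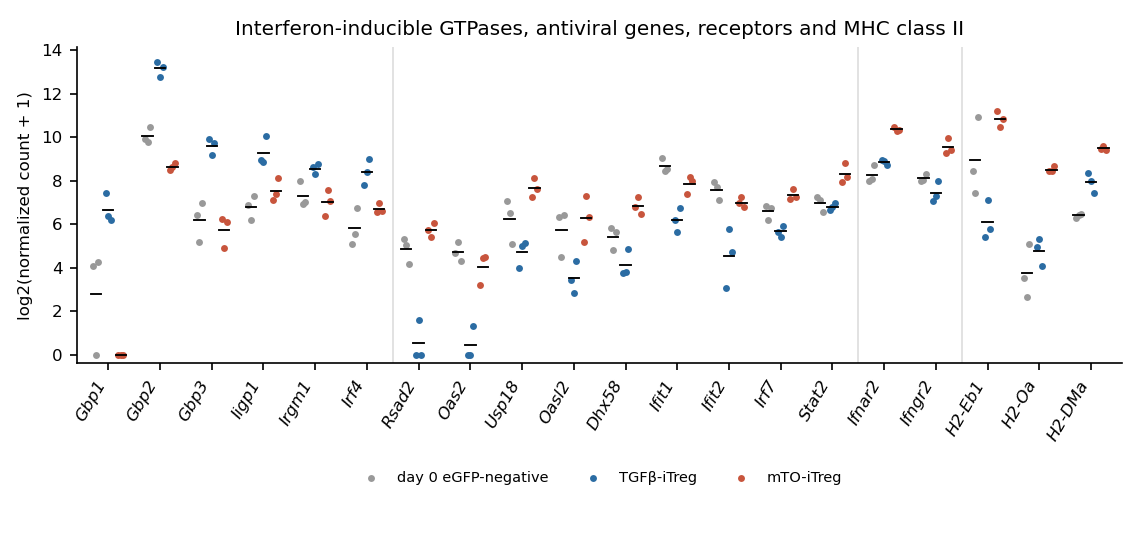
Points are single libraries (3 a group) on a log2(normalized count + 1) axis, and bars are means of those log2 values; vertical lines separate the GTPases with Irf4, the antiviral genes with Stat2, the receptors, and MHC class II genes. The mTO-iTreg points (red) lie below the TGFβ-iTreg points (blue) in the first block and above them in the other blocks.

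Most MHC class II genes were higher in mTO-iTreg cells. Class II molecules show peptides from taken-up protein to CD4+ cells. In the mouse, resting T cells make little of them. Of 11 tested members 7 were higher and 1 lower (median log2 change 1.87). H2-Eb1, a β chain of the molecule itself, was at 41.8, 139.7 and 53.4 in TGFβ-iTreg and 2331, 1410.0 and 1817 in mTO-iTreg libraries, 23.7-fold higher (log2 change 4.72 ± 0.66 SE, adjusted p = 0.00019), but at 344, 175 and 1985 on day 0. The mTO-iTreg level was thus reached by 1 of the 3 day 0 libraries. H2-Oa, a chain of the H2-O molecule that restrains peptide loading, was at 29.5, 39.3 and 15.8 against 343, 345 and 411, 13-fold higher (log2 change 3.74 ± 0.55 SE, adjusted p = 0.00026), and at 10.5, 5.38 and 32.7 on day 0. H2-DMa, a chain of the loading catalyst, was 2.86-fold higher, its partner H2-DMb1 11.1-fold and H2-Ob 4.42-fold. The rise of H2-Ab1, at 88.5, 76.6 and 33.1 against 229, 208 and 313 (adjusted p = 0.021), was lost without TGFβ-iTreg replicate 3 (adjusted p = 0.0874), mTO-iTreg replicate 1 (0.0503) or mTO-iTreg replicate 3 (0.0781). The lower member was Ctss, the protease cathepsin S that trims the invariant chain, by 2.84-fold (adjusted p = 5.7e-06). B and myeloid cells also carry class II. Of the 4 B and plasma cell markers tested, 2 were higher. The B cell marker Cd79b was at 9.84, 14.9 and 4.45 against 73, 58.9 and 48.5. The part of such cells in the class II values was not tested. Most class I genes that passed the test were lower, 5 of 24 against 1 higher, while the median log2 change of the 24 was 0.06. The number higher was 2 without TGFβ-iTreg replicate 3, mTO-iTreg replicate 1 or day 0 replicate 1 or 2. The subunits of the peptide transporter parted: Tap1 was at 913, 623 and 672 against 1609, 1293 and 1881, 2.17-fold higher, and Tap2 at 381, 318 and 367 against 184, 168 and 151, 2.12-fold lower (adjusted p = 0.00061 and adjusted p = 0.0027). H2-T23, the class I molecule Qa-1 that binds NKG2 receptors, was 3.3-fold lower.

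Most genes of T cell traffic that passed the test were lower in mTO-iTreg cells. Of 17 chemokines and receptors 7 were lower and 3 higher. Every one of the 4 called ligands, of 7 tested, was lower. Ccl4, which draws T cells and monocytes, was at 571, 549 and 306 in TGFβ-iTreg and 2.73, 19.2 and 1.33 in mTO-iTreg libraries, 61.2-fold lower (log2 change -6.36 ± 0.84 SE, adjusted p = 0.00012). Xcl1, the attractant of cross-presenting dendritic cells, was at 1955, 1559.8 and 1339 against 30.01, 59.6 and 17.3, 45.4-fold lower (log2 change -5.62 ± 0.47 SE, adjusted p = 3.8e-06; chromosome 1, 164931644 to 164935527). The groups did not overlap, and both mTO-iTreg means were also below those of day 0, 30.5 ± 26.4 and 117 ± 90.4. Ccl20, the ligand of the Th17 receptor CCR6, was at 12.3, 45.4 and 27.7 in TGFβ-iTreg libraries and had 0 counts in mTO-iTreg libraries, at least 43.4-fold lower with the same floor. With the filter at 20, 4 chemokine and receptor genes were lower, 2 of them ligands. Among receptors, Cxcr3, the receptor for interferon-induced chemokines, was at 359, 241 and 120.1 against 7.5, 23.6 and 65.1 (log2 change -3.19 ± 0.62 SE, adjusted p = 0.002), and Cxcr4, which holds cells in bone marrow and lymphoid tissue, at 512, 524 and 586 against 115, 78.2 and 49.2 (log2 change -2.81 ± 0.32 SE, adjusted p = 3.3e-05). The 3 receptors that were higher were Cxcr5, Ccr9 and Ccr7. Cxcr5, the receptor for B cell follicles, was at 0, 14.2 and 2.47 against 154, 93.1 and 108 (log2 change 4.96 ± 0.79 SE, adjusted p = 0.0005). Ccr9, the receptor for the small intestine, was 2.95-fold higher at 972 ± 156, and Ccr7, the receptor for lymph nodes, 1.8-fold higher at 2532 ± 744.

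Of 20 integrins, selectins and lipid egress receptors, 9 were lower and 2 higher (median log2 change -0.47). Itgb7, the partner of Itgae and of the gut-homing integrin α4β7, was at 1040.4, 947 and 917 against 249, 290.3 and 255, 3.66-fold lower (log2 change -1.87 ± 0.17 SE, adjusted p = 7.2e-06). Itga6, a laminin receptor chain, was 3.03-fold lower, the adhesion ligand Icam2 4.39-fold, and the sphingosine 1-phosphate receptors S1pr4 and S1pr1, which guide exit from lymph nodes, 3.56-fold and 1.71-fold. The 2 that were higher were Gpr183, the oxysterol receptor EBI2 (34.4, 43.4 and 15.8 against 191, 320.1 and 126, 6.81-fold), and Cd44, the hyaluronan receptor of activated cells (2.08-fold).

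Most receptors of the TNF family were higher. Of 12 tested, 7 were higher and 2 lower (median log2 change 0.95). The 2 lower ones were Cd40 and Tnfrsf26. Cd40 was at 93.5, 63.1 and 147 against 15.7, 5.58 and 3.32, 12.3-fold lower (log2 change -3.63 ± 1.04 SE, adjusted p = 0.019). Tnfrsf26 was 2.35-fold lower (adjusted p = 0.017). The number lower was 1 without TGFβ-iTreg replicate 1 or mTO-iTreg replicate 3 and 0 without TGFβ-iTreg replicate 3 or mTO-iTreg replicate 2. Most of these receptors costimulate T cells, while Fas and Tnfrsf10b, the TRAIL receptor, are death receptors. Tnfrsf9 (4-1BB) was at 155, 229 and 95.8 against 1331, 1494 and 1188, 8.37-fold higher (log2 change 3.14 ± 0.28 SE, adjusted p = 5.6e-06). Tnfrsf18 (GITR) was 3.27-fold higher, Tnfrsf4 (OX40) 2.8-fold and Cd27 1.48-fold. Tnfrsf10b was 5.12-fold higher (adjusted p = 0.02), a call lost without TGFβ-iTreg replicate 1 (adjusted p = 0.0713) or 3 (0.058) or mTO-iTreg replicate 2 (0.0512) or 3 (0.0772). Fas was 1.92-fold higher (adjusted p = 0.016), a call lost without TGFβ-iTreg replicate 2 (adjusted p = 0.0709) or mTO-iTreg replicate 1 (0.0788). Among 9 ligands, Fasl, the death ligand, was at 0, 11.5 and 5.93 against 56.6, 78.8 and 99 (log2 change 4.12 ± 0.81 SE, adjusted p = 0.0023) and Tnfsf8, the ligand of CD30, at 36.9, 27.1 and 27.2 against 262, 286 and 173 (log2 change 2.93 ± 0.46 SE, adjusted p = 0.00044), both higher with no overlap. Ltb, a chain of lymphotoxin that shapes lymphoid tissue, was 2.6-fold lower. Among cytokine genes, Ebi3, a subunit shared by IL-27 and IL-35, was at 0, 12.2 and 4.94 against 85.3, 109.8 and 131, 19-fold higher (log2 change 4.66 ± 0.92 SE, adjusted p = 0.0023). Lif, a cytokine of the IL-6 family, was at 56.6, 6.78 and 13.8 against 208, 496 and 217, 11.9-fold higher (log2 change 3.91 ± 0.82 SE, adjusted p = 0.0032), and Mif 1.98-fold higher. Csf1, the macrophage growth factor, was 5.9-fold lower. Il10 was at 0, 0 and 4.94 against 7.5, 1.24 and 1.99 and Il2 at 2.46, 0 and 15.8 against 13.6, 0 and 0; neither was tested, for lack of signal.

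JAK-STAT genes were higher in 10 of 25 cases and lower in 1; 2 were lower without TGFβ-iTreg replicate 2 or day 0 replicate 1 or 3. Stat4, which serves IL-12, was at 167, 125 and 75.1 against 570.2, 414 and 563, 4.21-fold higher (log2 change 2.12 ± 0.27 SE, adjusted p = 9.8e-05), and Stat3, which serves IL-6 family cytokines, 1.67-fold higher. Jak2 was 2.1-fold higher. Of 14 inhibitors 6 were higher and 0 lower, with 1 lower without those same libraries. Cish, a STAT5 target, was at 406, 411 and 562 against 1614, 1653 and 1203 (log2 change 1.7 ± 0.34 SE, adjusted p = 0.0025) and Socs3 at 159.9, 204 and 158 against 549, 653 and 541 (log2 change 1.74 ± 0.2 SE, adjusted p = 3.3e-05). The Cish level was 3.24-fold higher in the group with the lower listed dose of IL-2. Pias2 and Pias3, SUMO ligases that restrain STATs, were 2.72-fold and 2.51-fold higher. Of 24 cytokine receptors 7 were higher and 4 lower. The number higher was 3 or 4 without any 1 iTreg library, and 3 with TMM factors, against 5 lower. The lower ones were Il6ra, Il27ra, Il7r and Il17ra. Il6ra, the IL-6 binding chain, was at 125, 130.2 and 158 against 43.7, 26.1 and 33.2 (log2 change -2.0 ± 0.27 SE, adjusted p = 0.00013), Il27ra 2.83-fold lower and Il7r, the receptor of naive and memory cells, 3.21-fold lower. Il17ra, of the IL-17 receptor, which does not signal through JAKs, was 2.15-fold lower. The higher ones included the interferon receptor chains Ifngr2 and Ifnar2 described above. Il6st, the signalling chain that IL-6 family receptors share, was 1.84-fold higher (adjusted p = 0.034), a call lost without any 1 iTreg library other than TGFβ-iTreg replicate 3 (adjusted p from 0.0507 to 0.133). Ifngr1, the binding chain for interferon gamma, was 1.5-fold higher (adjusted p = 0.04), a call lost without TGFβ-iTreg replicate 3 (adjusted p = 0.165) or mTO-iTreg replicate 2 (0.0736) or 3 (0.15). Il2ra, the high-affinity IL-2 chain, was at 3651 ± 950.2 with TGFβ and 2398 ± 164 with organoids (adjusted p = 0.28), and Ctla4 at 884 ± 51.6 with TGFβ and 829.5 ± 137 with organoids (adjusted p = 0.8).

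Genes of the T cell receptor complex and its kinases were called in both directions, 7 of 37 higher and 9 lower. Cd4 itself was at 1043, 969.8 and 1014 in TGFβ-iTreg and 2866, 3482 and 3533 in mTO-iTreg libraries, 3.26-fold higher (log2 change 1.7 ± 0.13 SE, adjusted p = 1.9e-06), against 2458 ± 318 on day 0. The phosphatase Ptprc (CD45) was 1.93-fold higher and the kinase Zap70 2.04-fold. The kinases Lck and Fyn were 1.48-fold and 1.82-fold lower, the adaptors Lat and Skap1 1.7-fold and 2.05-fold, and the phosphatase Ubash3b 2.73-fold. Of 21 co-inhibitory and costimulatory receptors 1 was higher and 6 lower; 2 were higher without TGFβ-iTreg replicate 2 or mTO-iTreg replicate 2 or 3. The higher one, Cd2, an adhesion receptor that costimulates, was at 2152, 2058 and 2174 against 5991, 6658 and 6634 (log2 change 1.59 ± 0.1 SE, adjusted p = 3.8e-07). Its mouse ligand Cd48 was 2.35-fold lower, Slamf6 3.65-fold, Cd96 2.14-fold and Cd6 1.87-fold. The nectin-like ligand Pvr (CD155), which Cd96 binds, was 5.47-fold higher. Among 27 feedback genes of the receptor, 7 were higher and 3 lower. Spry1, an inhibitor of Ras signalling, was at 876, 1053 and 645 against 77.1, 115 and 63.8, 10.1-fold lower (log2 change -3.33 ± 0.38 SE, adjusted p = 3.5e-05) and near the day 0 level of 81.6 ± 46.4. The ubiquitin ligase gene Nedd4 and its adaptor Ndfip1 were 6.44-fold and 2.15-fold higher, Dgkz, which removes diacylglycerol, 2.63-fold and the immediate early receptor Nr4a1 2.47-fold. The dual-specificity phosphatase Dusp2 was 1.89-fold lower.

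Transcription factors of other helper lineages moved one by one. Of 35 tested 7 were higher and 4 lower. Eomes, a T-box factor of cytotoxic and memory cells, was at 71.3, 48.2 and 20.3 against 685, 1243 and 495, 17.3-fold higher (log2 change 4.15 ± 0.53 SE, adjusted p = 9.6e-05; chromosome 9, 118478212 to 118486132). Gata3, the Th2 factor, was at 376, 329.6 and 512 against 998, 1029 and 826, 2.34-fold higher, and Hif1a, the oxygen sensor's factor, 2.55-fold. Maf, which drives IL-10 and follicular genes, was at 216, 205 and 343 against 18.4, 14.3 and 23.2, 13.7-fold lower (log2 change -3.69 ± 0.42 SE, adjusted p = 3.5e-05) and below the day 0 level of 69.6 ± 35.3. Myc was 1.74-fold lower and its antagonist Mxd1 2.43-fold higher. Tbx21, the Th1 factor, was at 12.8 ± 4.22 with TGFβ and 21.8 ± 26 with organoids (adjusted p = 0.91). Of the AP-1 family, Jun and Jund were 2.46-fold and 2.5-fold lower and Fosl2 and Crem 7.25-fold and 3.07-fold higher. Jdp2, a repressor of that family, was at 0, 5.43 and 1.48 against 131, 109 and 168 (log2 change 5.74 ± 0.84 SE, adjusted p = 0.00026). Notch3, a Notch receptor, had 1 count in all in TGFβ-iTreg and 340 in mTO-iTreg libraries, at 74.1 ± 14.4 in the latter (adjusted p = 0.00014). Ikzf2, the Treg factor Helios, was 3.33-fold higher (adjusted p = 0.00032).

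Genes of naive and memory T cells were lower in 16 of 33 cases and higher in 8 (median log2 change -0.43). Klf2, the factor that keeps cells quiescent and circulating, was at 3131, 3177 and 3553 against 889, 934 and 629, 4.02-fold lower (log2 change -2.03 ± 0.16 SE, adjusted p = 3.3e-06), whereas on day 0 it stood at 3434 ± 605, near the TGFβ-iTreg level. Atp1b1, a sodium pump subunit, was at 1633, 1388 and 2802 against 303, 280.4 and 209, 7.35-fold lower. Actn1, an actin crosslinker, was 3.72-fold lower and the phosphodiesterase Smpdl3a 3.39-fold. Among the members that were higher, Dapl1 was at 17.2, 52.9 and 46.9 against 304, 353 and 217, 7.46-fold (log2 change 2.99 ± 0.34 SE, adjusted p = 3.3e-05), which is still far under its day 0 level of 1802 ± 119. The survival factor Bcl2 was 1.79-fold higher. Tcf7 and Lef1, factors of naive and stem-like cells, were at 347 ± 34.5 with TGFβ and 355 ± 54.5 with organoids (adjusted p = 0.93) and at 1655 ± 149 with TGFβ and 1973 ± 427 with organoids (adjusted p = 0.24).

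Genes of the p53 pathway were higher in 20 of 39 cases and lower in 5 (median log2 change 0.94). p53 is a stress-activated transcription factor that halts division, aids repair and promotes death. Cdkn1a, which encodes the cell cycle inhibitor p21, was at 9.84, 9.49 and 60.3 in TGFβ-iTreg and 3814, 2559 and 2421 in mTO-iTreg libraries, 110.5-fold higher (log2 change 7.23 ± 0.82 SE, adjusted p = 3.5e-05; chromosome 17, 29090976 to 29100727). All 3 mTO-iTreg libraries lay far above the 6 others. Psrc1, a microtubule regulator, was at 14.8, 19.7 and 29.6 against 992, 574 and 799.8, 36.9-fold higher (log2 change 5.16 ± 0.59 SE, adjusted p = 3.8e-05), and Phlda3, an inhibitor of AKT, at 4.92, 6.78 and 6.92 against 342, 114 and 203, 35.4-fold higher (log2 change 4.81 ± 0.8 SE, adjusted p = 0.00065). The stress gene Gadd45g was 12.2-fold higher, Plk2 10.6-fold, the translesion polymerase Polk 9.58-fold, the excision nuclease Ercc5 5.29-fold and cyclin G1, Ccng1, 3.11-fold. Its relative Ccng2 was 3.18-fold lower, at 622, 621 and 643 against 229.8, 169 and 194, and so were Sesn1 (1.81-fold) and the antiproliferative Btg2 (1.94-fold). Trp53 itself was at 1002 ± 54 with TGFβ and 761 ± 154 with organoids (adjusted p = 0.063).

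Mitotic genes were also higher, in 19 of 67 cases, and 0 were lower (median log2 change 1.12). The count was 9, 11 and 12 without mTO-iTreg replicate 1, mTO-iTreg replicate 3 and TGFβ-iTreg replicate 3, 35 in the fit of the 2 iTreg groups alone and 37 by limma-voom on the recovered counts. Pttg1, the securin that holds sister chromatids together, was at 187, 197 and 152 against 1156, 1370.3 and 1190.4, 6.94-fold higher (log2 change 2.79 ± 0.17 SE, adjusted p = 2.4e-07). Cenpa, the histone of the centromere, was 3.78-fold higher, the checkpoint gene Mad2l1 3.24-fold, the kinesins Cenpe and Kif23 9.66-fold and 4.04-fold, the spindle factor Tpx2 4.21-fold and the ubiquitin enzyme Ube2c 3.01-fold. Mki67, the proliferation marker, was at 152 ± 61.8 with TGFβ and 242 ± 91.6 with organoids (adjusted p = 0.65). Of 51 DNA replication genes 6 were higher and 3 lower. The number higher was 3 without TGFβ-iTreg replicate 1 or 3 or mTO-iTreg replicate 1 or 2, and 11 without day 0 replicate 2, 13 in the fit of the 2 iTreg groups alone and 12 by limma-voom. Mcm2, of the replicative helicase, was 2.06-fold higher, and the flap nuclease Fen1 2.22-fold lower, at 244, 312 and 263 against 138, 145 and 85.7. Among cell cycle inhibitors, Rb1, the brake on S phase entry, was 2.56-fold higher beside Cdkn1a. Of 41 repair genes 6 were higher and 0 lower, or 3 higher without TGFβ-iTreg replicate 3. Rad50, of the complex that senses double-strand breaks, was at 7.38, 57.6 and 50.9 against 251, 202 and 147 (log2 change 2.74 ± 0.59 SE, adjusted p = 0.0038), and its partner Mre11a 2.69-fold higher. Bcl2l1, which blocks cell death, was 3.76-fold higher and caspase 2, Casp2, 2.12-fold lower.

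**Figure D4:**
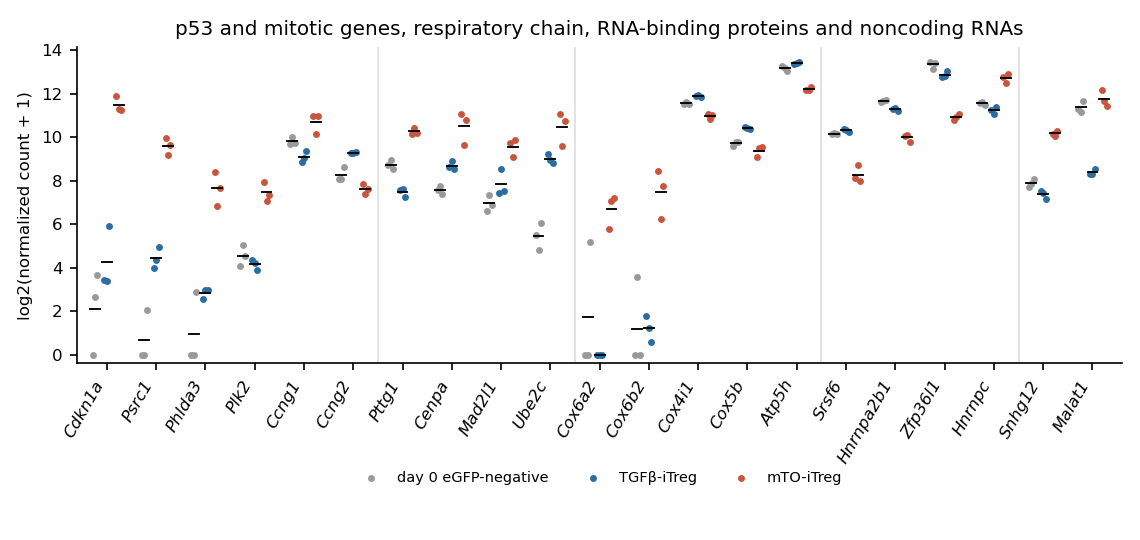
Points are single libraries (3 a group) on a log2(normalized count + 1) axis, and bars are means of those log2 values; vertical lines separate p53, mitotic, respiratory chain, RNA-binding protein and noncoding RNA genes. Cdkn1a has the widest gap, with all mTO-iTreg points (red) far above the other 6 libraries, while Cox4i1, Cox5b, Srsf6 and Zfp36l1 lie lower in mTO-iTreg cells.

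Effector genes were called in both directions. Gzmb, the protease granzyme B, was at 762, 276 and 654 in TGFβ-iTreg and 4226, 5467 and 5687 in mTO-iTreg libraries, 9.09-fold higher (log2 change 3.3 ± 0.37 SE, adjusted p = 3.5e-05). Serpinb6b, a cytosolic serpin of lymphocytes, was at 179.6, 239 and 179.8 against 3192, 2957 and 2462, 14.4-fold higher (log2 change 3.84 ± 0.18 SE, adjusted p = 1.8e-08). Serpine2, a serpin that inhibits thrombin and urokinase, was 33.7-fold higher, at 536 ± 239.5. Serpina3g, an inhibitor of cathepsins, went the other way, at 239, 97 and 204 against 4.09, 3.72 and 3.99, 45.7-fold lower (log2 change -5.1 ± 0.61 SE, adjusted p = 5.5e-05). The lipocalin genes Lcn10 and Lcn6, neighbours whose products carry small lipophilic molecules, were 14.4-fold and 50.4-fold higher, at 4190.0 ± 741 and 621 ± 258. Klrd1, the CD94 chain of NKG2 receptors, was at 118, 57 and 58.3 against 4.77, 3.72 and 2.66 (log2 change -4.0 ± 0.45 SE, adjusted p = 3.3e-05), and so was lower, as was H2-T23, whose product binds it. The summed level of the 10 CD8 and NK cell markers in the table was 244 to 369 in TGFβ-iTreg and 604 to 1385 in mTO-iTreg libraries, with 1 of 5 tested higher (Eomes) and 1 lower (Klrd1). Cd8a was at 51.7, 23.1 and 88.9 against 18.4, 11.8 and 14.6, and the part of such cells in these values was not tested. The calcium-binding S100 genes parted. S100a4 and S100a6, which lie side by side and mark memory and motile cells, were at 108, 134 and 658 against 8.18, 3.72 and 6.64 and at 261, 189 and 705 against 41.6, 28.5 and 45.8, 48.6-fold and 9.96-fold lower (adjusted p = 6.6e-05 and adjusted p = 0.00014). S100a11, from the same gene cluster, was at 148, 182 and 161 against 1670.3, 1019.8 and 1342, 8.23-fold higher (log2 change 3.01 ± 0.25 SE, adjusted p = 3.7e-06). The membrane-binding annexins Anxa2 and Anxa7 were 5.59-fold and 3.04-fold higher, and Lgals1, the galectin that Treg cells use for suppression, 1.71-fold lower.

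Of 87 nuclear genes of the respiratory chain 19 were higher and 19 lower. In complex I 10 of 43 were higher and 5 lower, and in complexes II to V 9 of 44 were higher and 14 lower. The difference between them was not tested. The number of complex I genes that were higher was 5 or 6 without any 1 iTreg library other than mTO-iTreg replicate 2. With TMM factors it was 6, against 8 lower. Ndufv3 and Ndufb2, accessory subunits of complex I, were 2.08-fold higher and 1.96-fold lower. Cox6a2 and Cox6b2, isoforms of cytochrome oxidase subunits that are known from heart and muscle and from testis, had 0 and 4 counts in TGFβ-iTreg libraries. In mTO-iTreg libraries they stood at 53.9, 133 and 149 and at 347, 73.8 and 219 (adjusted p = 0.001 and adjusted p = 0.0004), and Cox6a2 was at least 92.4-fold higher with the same floor. The common subunits Cox4i1 and Cox5b of the same enzyme were 1.89-fold and 2.06-fold lower, while Cox7c and Cox8a were 2.62-fold and 1.53-fold higher. In the ATP synthase, Atp5h was at 10677, 10832 and 11458 against 4704, 4598 and 5136, 2.28-fold lower (log2 change -1.19 ± 0.1 SE, adjusted p = 4.4e-06), and Atp5g2 1.91-fold higher. Mitochondrially encoded RNAs differed by class, in groups formed after their symbols were seen. Of 13 mRNAs 8 were lower and 2 higher. They made up 8.72% to 10.3% of normalized counts in TGFβ-iTreg and 4.76% to 5.37% in mTO-iTreg libraries, against 15.9% to 16.8% on day 0. mtCytb, cytochrome b, was 6.08-fold lower, and mtCo1, of the same genome, 1.42-fold higher (adjusted p = 3.4e-08 and adjusted p = 0.0039), the latter not without the trend of variance on level (adjusted p = 0.0574). Both mitochondrial rRNAs were higher, with shares of 1.66% to 2.2% and 6.81% to 7.48%. Of 16 tRNAs 11 were higher and 1 lower. The ends of the range were mt-Ts2, with 1 count in TGFβ-iTreg libraries against 553, 715 and 465 in mTO-iTreg libraries, and mt-Tt, 3.39-fold lower. The part of library preparation in these values was not tested.

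Of 55 genes of cholesterol and fatty acid metabolism 12 were higher and 8 lower, or 9 higher and 10 lower with TMM factors. The number higher was 7 without mTO-iTreg replicate 2 and 6 without mTO-iTreg replicate 3, and 5 were lower without TGFβ-iTreg replicate 1 or mTO-iTreg replicate 2. Scd2, which puts the first double bond into fatty acids, was at 275, 285 and 540.5 against 1848, 2027 and 2789, 6.05-fold higher (log2 change 2.64 ± 0.27 SE, adjusted p = 1.6e-05), and Acadl, an enzyme of fatty acid breakdown, 3.29-fold higher. Of 37 glutathione, thioredoxin and NRF2 genes 5 were higher and 5 lower, shares close to those over all genes tested, or 5 higher and 8 lower with TMM factors. Nfe2l2, the transcription factor NRF2, was 2.01-fold higher and Ftl1, the ferritin light chain, 2.0-fold. Gpx4, the peroxidase that protects membrane lipids, was 2.34-fold higher, whereas its soluble relative Gpx1 was 2.38-fold lower, glutathione reductase, Gsr, 3.35-fold lower and Gclc, which starts glutathione synthesis, 2.24-fold lower. Aminoacyl-tRNA synthetases, which load amino acids onto tRNA, were higher in 11 of 22 cases and lower in 1 (0 without any 1 iTreg library, or day 0 replicate 1 or 3), by factors such as 3.33-fold for Cars and 2.82-fold for Iars. Of transporters, Slc1a4, for serine and alanine, was 17.1-fold higher, and Slc3a2, the heavy chain of the leucine exchangers, was at 571, 514 and 481 against 1897, 2605 and 1689, 3.96-fold higher. Slc6a6, for taurine, was at 1702, 899.9 and 1686 against 208, 294 and 329, 5.16-fold lower (log2 change -2.33 ± 0.24 SE, adjusted p = 1.8e-05), and the nucleoside carrier Slc29a1 3.18-fold lower.

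Most RNA processing genes that passed the test were lower. Of 64 splicing factors and hnRNPs 26 were lower and 8 higher (median log2 change -0.29). Srsf6, an SR protein that promotes exon use, was at 1333, 1280.4 and 1222 against 276, 423 and 257, 4.01-fold lower (log2 change -2.04 ± 0.17 SE, adjusted p = 3.9e-06). Other SR genes, Srsf2, Srsf5 and Srsf9, were 2.32-fold, 2.21-fold and 2.76-fold lower, the spliceosome core genes Snrpf and Snrpg 2.55-fold and 2.11-fold, and Hnrnpa2b1, which binds nascent RNA, 2.45-fold. Hnrnpc, a member that was higher, was at 2474, 2169 and 2667 against 7067, 5725 and 7631 (log2 change 1.48 ± 0.12 SE, adjusted p = 3.9e-06). The kinase Clk1, which phosphorylates SR proteins, was 2.14-fold higher. Genes of mRNA decay were lower in 7 of 16 cases and higher in 1. Zfp36l1, which binds AU-rich elements and brings in the deadenylase, was at 7017, 7149 and 8456 against 1773, 1969.6 and 2124, 3.86-fold lower (log2 change -1.95 ± 0.12 SE, adjusted p = 3.1e-07), and Zfp36l2 3.68-fold lower. Elavl1 (HuR), which binds similar elements and stabilises the RNA, was 2.72-fold lower. The member that was higher was Cnot3, of the deadenylase complex (2.87-fold). Nuclear noncoding RNAs differed too. Malat1, which sits in nuclear speckles with SR proteins, was at 315, 319 and 369.5 in TGFβ-iTreg and 4634, 3293 and 2773 in mTO-iTreg libraries, 10.7-fold higher (log2 change 3.38 ± 0.18 SE, adjusted p = 6.9e-08), against 2729.5 ± 504 on day 0. Hosts of small nucleolar RNAs went in both directions: Snhg12 was at 184, 174 and 144 against 1140.4, 1080.0 and 1270.1, 6.94-fold higher, Snhg5 and Gas5 3.13-fold and 2.47-fold higher, and Snhg3 and Snhg4 3.38-fold and 4.09-fold lower.

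Ribosomal protein genes were higher in 27 of 80 cases and lower in 9 (median log2 change 0.17), or higher in 13 without the trend of variance on level. Rps16 was at 17340.2, 17686 and 16186 against 40643, 36765 and 35352, 2.2-fold higher, and Rpl29 2.18-fold higher. Rpsa, which is also a laminin receptor, was at 64451, 67264 and 52706 against 36173, 24342 and 31149, 2.01-fold lower, and Rps25 1.88-fold lower. Ribosomal proteins have many processed pseudogenes, so the division of reads is uncertain. Eif4ebp1, the mTOR-controlled inhibitor of cap binding, was at 101, 107 and 127 against 569.5, 781 and 767, 6.31-fold higher (log2 change 2.64 ± 0.39 SE, adjusted p = 0.00026), and Eif2s2, the β subunit of the initiator tRNA carrier, 3.43-fold higher, while Eif3l was 2.38-fold and the elongation factor Eef2 1.92-fold lower. Proteasome genes were lower in 14 of 47 cases and higher in 1, with a median log2 change of -0.22. The number higher was 0 without TGFβ-iTreg replicate 1 or 2 or mTO-iTreg replicate 1 or 3. Psmd6, of the regulatory lid, was at 335, 390.0 and 388 against 105, 270.5 and 78.4, 2.45-fold lower (log2 change -1.49 ± 0.35 SE, adjusted p = 0.0067), the nuclear activator Psme3 2.36-fold lower and the assembly factor Pomp 1.9-fold. Cytosolic heat shock genes were lower in 11 of 31 cases and higher in 4, with 7 lower without TGFβ-iTreg replicate 1 or without mTO-iTreg replicate 1 or 2, and 1 or 2 higher without any 1 iTreg library or day 0 replicate 1. Hsph1 was at 546, 532 and 738 against 132, 171 and 119, 4.3-fold lower, and Cct8, of the chaperonin that folds actin and tubulin, 2.89-fold. Hspa1b was at 39.4, 160.1 and 99.3 against 6.82, 8.06 and 8.64, far below its 4956 ± 697 on day 0, and shares most of its sequence with Hspa1a. Of 31 endoplasmic reticulum chaperones and genes of the unfolded protein response 8 were higher and 4 lower (median log2 change -0.01), with 2 lower without replicate 1 of either iTreg group. The chaperone Hspa5 (BiP) was 2.14-fold higher and the stress factors Xbp1 and Ddit3 2.43-fold and 5.18-fold higher, while P4hb, a disulfide isomerase, and Manf, a secreted stress protein, were 1.61-fold and 1.5-fold lower.

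Several abundant actin regulators were lower. Of 61 cytoskeleton genes 13 were lower and 10 higher. Tmsb4x, which holds actin monomers, was at 60129.8, 53105 and 66600.4 against 31285, 27061 and 34503, 1.94-fold lower (log2 change -0.95 ± 0.12 SE, adjusted p = 9e-05), and Tmsb10 2.31-fold lower. The severing factor Cfl1, the membrane linker Msn and the crosslinker Flna were 1.97-fold, 2.55-fold and 2.74-fold lower. Tubulin Tubb5 was 2.05-fold higher, at 11463 ± 1406. Of 47 ion channels and pumps 11 were lower and 4 higher. Genes of calcium entry and storage were among them. Atp2a3, the pump that fills the calcium store, was at 588, 635 and 479 against 150.1, 81.9 and 165, 4.29-fold lower (log2 change -2.15 ± 0.32 SE, adjusted p = 0.00031). The store sensor Stim2 and the entry channel Orai1 were 2.83-fold and 2.17-fold lower, and Itpr1, the store's release channel, 3.47-fold higher. The sodium pump subunit Atp1b3 was 3.53-fold lower, at 1142 ± 74.8. Among tetraspanins, which organise receptors in the membrane, Cd81 was at 167, 475 and 316 against 1468, 1058 and 2213, 4.95-fold higher (log2 change 2.36 ± 0.33 SE, adjusted p = 0.0002), Cd53 2.25-fold higher and Cd9 2.6-fold lower.

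Some of the largest single differences lay outside these families. Tgm2, the crosslinking enzyme transglutaminase 2, stood at 0, 1.36 and 0 in TGFβ-iTreg and 314, 426 and 394 in mTO-iTreg libraries (log2 change 8.14 ± 0.91 SE, adjusted p = 3.2e-05; chromosome 2, 158116402 to 158146436), from 2 and 1739 counts in all and 10 on day 0. Igsf23, an immunoglobulin superfamily gene, was at 24.6, 13.6 and 9.88 against 522, 857 and 778 (log2 change 5.46 ± 0.35 SE, adjusted p = 3.8e-07). Among the falls, Igfbp7, a secreted binder of insulin-like growth factors, was at 389, 431 and 1130.4 against 0.682, 16.1 and 5.98, 85.6-fold lower (log2 change -6.62 ± 0.78 SE, adjusted p = 4.6e-05; chromosome 5, 77349240 to 77408041). Aqp3, a channel for water and glycerol, was at 329.6, 373 and 436 against 4.09, 8.68 and 0.664, 84.7-fold lower (log2 change -6.44 ± 0.56 SE, adjusted p = 4.8e-06). The kinase gene Src was at 165, 205 and 180.3 against 0, 0 and 19.9, 27.6-fold lower (log2 change -6.06 ± 1.18 SE, adjusted p = 0.0021). Bdh2, a dehydrogenase of ketone and iron-carrier metabolism, was at 81.2, 208 and 93.9 with 0 counts in mTO-iTreg libraries, at least 195-fold lower, and Ffar4, a receptor for long-chain fatty acids, was at 68.9, 38 and 45.5 with 0 counts, at least 77.4-fold lower. On day 0 Igfbp7 was at 70.04 ± 64.5, Aqp3 at 61.3 ± 19.7 and Src at 6.21 ± 9.28.

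**Figure D5:**
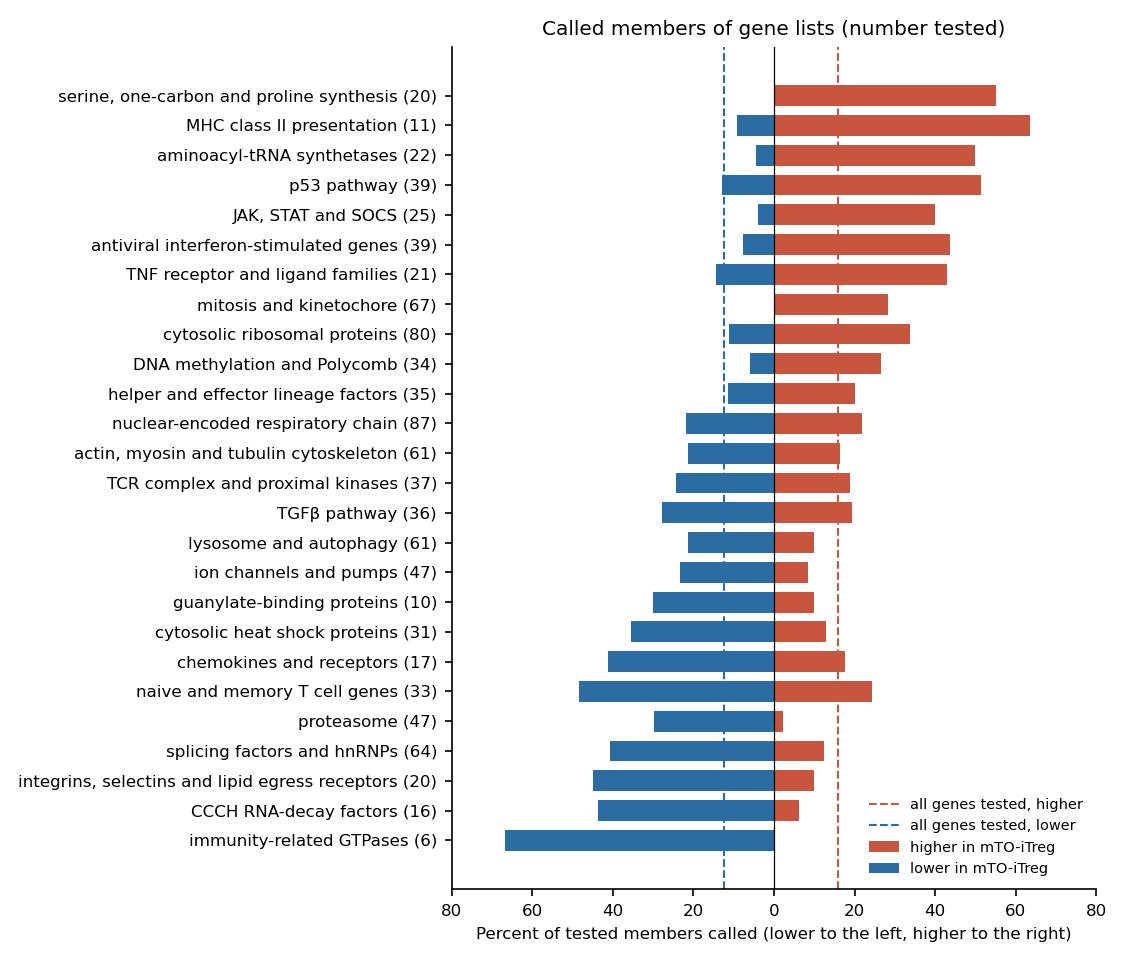
Bars give the percent of tested members of selected gene lists (number tested in brackets) that were called higher (right, red) or lower (left, blue) in mTO-iTreg cells; dashed lines give the same over all genes tested, 15.8% and 12.4%. Among the lists drawn, MHC class II, serine and one-carbon synthesis, p53 and aminoacyl-tRNA synthetase genes lie furthest to the right, and immunity-related GTPases, of which 6 were tested, furthest to the left.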

How the data were processed

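RNA of sorted CD4+ T cells was read by a modified CEL-Seq protocol (3′ ends), per the labels' protocols. The authors deposited gene counts divided by a size factor for each library; BWA, the build mm10 and DESeq2 are named in the submitters' processing notes, and the sources used here give no version, counting rule or strand. Values were whole multiples of 1 read within 0.1 read for 100% of values, so the counts per library were recovered from them. The 6 iTreg libraries held 2078223 to 9944952 counts.

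Genes with at least 5 normalized counts in at least 3 of the 6 iTreg libraries were tested on log2(value + 1) with limma 3.58.1 (R 4.3.3), with a mean for each of the 3 groups (9 libraries), a trend of variance on level and Benjamini-Hochberg adjustment over 10412 genes at 0.05. On simulated counts for this comparison (10601 genes), 73% of genes changed 2-fold and 100% of those changed 4-fold were called. The changed genes averaged at least 20 normalized counts, and all genes were given the same spread between libraries (dispersion 0.0332). These shares thus do not cover rarer genes or genes that vary more. Alternatives covered pseudocount, filter, scaling, fit, depth and each library left out. Positions are from GENCODE M21 and promoters from RefSeq GRCm38.p6; coordinates are on mm10 (GRCm38). Floors cover counting error only.

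The members and gene lists were chosen with earlier results of these data known. Genes are named by rule: the 15 largest non-overlapping rises and falls whose higher group averaged 20 or more, up to 5 called members per list and direction, preset T cell genes, and markers of other cells. These 42 were instead named after their values were seen: Atp5g2, Ccng1, Cd27, Cd6, Cenpa, Cfl1, Cox4i1, Cox8a, Cxcr4, Dhx58, Ercc5, Fas, H2-DMa, Id3, Ifit1, Ifit2, Jak2, Kif23, Mad2l1, Ndufv3, Oas2, Oasl2, Orai1, Pias3, Plk2, Polk, Pttg1, Slc29a1, Slc3a2, Smurf2, Snrpg, Srsf2, Srsf5, Stat3, Stim2, Tgfbr2, Tmsb4x, Tpx2, Ube2c, mt-Tt, mtCo1 and mtCytb.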

Additional observations from a re-analysis of the deposited data

How the results depend on the processing

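No called gene turned direction under the alternatives run, and 1646 of the 2934 calls held in each of them except the test against a log2 change of at least 1. That test called 351 genes, 219 higher and 132 lower, and over all list members together 73 higher and 47 lower, against 443 and 363. Leaving out 1 library at a time gave 2221 to 3156 calls, 1153 to 1799 higher and 961 to 1357 lower, with 339 to 484 higher and 293 to 374 lower list members. With an arm of 2 libraries, the spread is pooled over the 3 groups. limma-voom on recovered counts, chosen after seeing the data, called 2119 higher and 1622 lower. The replicate number as a block left 1594 higher and 1275 lower and lost none of 269 named calls, a number that leaves out Cd40 and Tnfrsf26. Same-numbered TGFβ-iTreg and mTO-iTreg libraries correlated in their deviations at -0.031, -0.019 and -0.00038. Between these groups, each library correlated best with another number. Same-numbered day 0 libraries correlated at 0.044, -0.012 and 0.064 with TGFβ-iTreg and at 0.003, 0.0304 and 0.0295 with mTO-iTreg libraries. Such small values, from 3 libraries a group, cannot show whether the numbers pair the samples. Without the trend of variance on level, 9 of the 269 named calls were lost. The counts of higher splicing factors, interferon regulatory factors and heat shock genes came to 5, 2 and 2, with 7 heat shock genes lower. limma-voom gave 11 higher lineage factors, 7 lower cytokine receptors, and 10 higher and 9 lower glutathione, thioredoxin and NRF2 genes, and the fit with no variance trend 2 higher cytokine receptors. Scaling without mitochondrial rRNAs, mitochondrial tRNAs and Rn45s left 2 Irg genes lower. That scaling kept the mitochondrial mRNAs. The fit of the 2 iTreg groups and the fit with no variance trend also left 2 Irg genes lower. The cause was not tested. Of the named genes that did not pass, Cd8a passed in 6, Foxp3 passed in 5, Il2ra passed in 3, Trp53 passed in 4, eGFP passed in 10 of the 23 alternatives. The planned edgeR and DESeq2 alternatives were not run, because the table was read as normalized values and not as counts. Depth limits rare transcripts: 1 read was worth up to 2.46 normalized counts in the iTreg libraries.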

Other observations

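Chromatin genes were called mostly upward. Of 34 genes of DNA methylation and Polycomb 9 were higher and 2 lower in mTO-iTreg cells (median log2 change 0.4). Tet1, which oxidises methylated cytosine, was at 12.3, 0.678 and 3.46 in TGFβ-iTreg and 27.3, 27.9 and 62.4 in mTO-iTreg libraries (log2 change 3.01 ± 0.7 SE, adjusted p = 0.0062). The Polycomb reader Cbx2 was 3.57-fold higher, and the histone demethylases Kdm5b and Kdm6b 3.09-fold and 2.68-fold. The deacetylase Sirt1 was 2.16-fold lower. Among histones, H2afy, the macroH2A variant of silent chromatin, was 2.13-fold higher, and H3f3a and H3f3b, which both encode the replacement histone H3.3, were 2.05-fold and 1.59-fold lower.

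Of 20 genes of serine, one-carbon and proline synthesis 11 were higher and 0 lower, with 6, 7 and 7 higher without TGFβ-iTreg replicate 3, mTO-iTreg replicate 2 and mTO-iTreg replicate 3. Of 8 Gimap genes 3 were higher and 0 lower, with 1 lower without TGFβ-iTreg replicate 2. Of 5 Schlafen (Slfn) genes 2 were higher and 2 lower, with 1 higher without TGFβ-iTreg replicate 1 or mTO-iTreg replicate 1 or 2. Gimap7, a GTPase of T cell survival, was at 229, 155 and 52.4 against 1519.6, 1341 and 2216, 11.6-fold higher (log2 change 3.74 ± 0.42 SE, adjusted p = 3.2e-05), Gimap6 1.78-fold and Slfn8 3.78-fold higher, while Slfn1 and Slfn2, Schlafen genes tied to quiescence, were 3.29-fold and 2.4-fold lower. Gimap7 stood at 529 ± 161 on day 0. Ly6c1, a surface protein of memory cells, was 11.4-fold lower. Sema4a, a semaphorin that acts on T cells, was 10.6-fold higher, and Nrn1, neuritin, 14-fold lower. Rgs16, which shortens G protein signals, was at 396, 578 and 344 against 49.8, 40.3 and 15.3, 12.5-fold lower (log2 change -3.73 ± 0.46 SE, adjusted p = 6.6e-05).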
